A study of Rattus norvegicus with 38 samples.

Results

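The miR-200 family comprises 5 microRNAs in the rat (rno-miR-200a, rno-miR-200b, rno-miR-200c, rno-miR-141 and rno-miR-429), and all 5 were among the 350 rat miRNAs on the array. The members were taken by name, with every probe and every array included and no threshold on their values, although earlier results of these data were known when the family was chosen. Liver RNA from 38 male Fischer F344 rats was profiled, 1 array per animal, after 90 days on a powdered control diet (5 animals) or on the same diet with 1 of 8 chemicals. The chemicals were Diethylthiourea at 2500 ppm (4 animals), Benzophenone at 1250 ppm (5), Phenobarbital at 1000 ppm (3), Diethylhexylphthalate at 12000 ppm (4), Monuron at 1500 ppm (4), Chlorendic Acid at 1250 ppm (4), Methapyrilene HCl at 250 ppm (4) and 2-acetylaminofluorene at 40 ppm (5). The rats were 8 weeks old when obtained, and each chemical was given at 1 dose. Housing was 5 rats to a cage per the labels, with no record here of which rats shared one.

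The miR-200 family is best known as a guard of the epithelial state. Its members bind the messages of the transcription repressors Zeb1 and Zeb2, which in turn repress E-cadherin and the miR-200 genes themselves. In the adult liver the family is known chiefly from the bile duct epithelium, while hepatocytes are dominated by miR-122. The genes lie in a pair of genomic clusters, and the members fall into a pair of seed groups that cut across those clusters.

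All 5 hairpins and 2 of the 5 mature 3p sequences were matched in RefSeq (build GRCr8). The mature sequences below show the pair of seeds, with bases 2 to 8 from the 5′ end in capitals. The seed of miR-200c-3p and that of miR-141-3p differ by 1 substitution, U4C, with positions counted from the 5′ end of the mature miRNA.
miR-200c-3p: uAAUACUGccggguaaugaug
miR-141-3p: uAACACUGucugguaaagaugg

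The hairpins are shown because they tie the seed groups to the clusters. The capitals mark the letters of either seed wherever they occur in the hairpin. The letters of the miR-200c seed occurred once each in miR-200b, miR-429 and miR-200c, and those of the miR-141 seed once each in miR-200a and miR-141. Among 419 rat hairpins, 4 held the letters of the first seed and 4 those of the second. The first cluster occupies 1908 bp of chromosome 5 on the minus strand, with miR-200b at chr5:171931495-171931589, miR-200a at chr5:171930717-171930805 and miR-429 at chr5:171929682-171929766, inside the span of Ttll10 and of a long noncoding RNA gene. The second occupies 509 bp of chromosome 4 on the minus strand, with miR-200c at chr4:159209965-159210033 and miR-141 at chr4:159209525-159209618, between Phb2 and Ptpn6. Gene spans only were used, so exons and introns were not assigned.
miR-200b: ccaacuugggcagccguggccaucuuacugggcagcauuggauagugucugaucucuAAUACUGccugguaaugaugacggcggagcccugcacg
miR-200a: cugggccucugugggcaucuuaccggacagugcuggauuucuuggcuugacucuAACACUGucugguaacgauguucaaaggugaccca
miR-429: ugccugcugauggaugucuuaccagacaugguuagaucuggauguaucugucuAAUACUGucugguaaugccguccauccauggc
miR-200c: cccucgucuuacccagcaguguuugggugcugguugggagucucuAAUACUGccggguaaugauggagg
miR-141: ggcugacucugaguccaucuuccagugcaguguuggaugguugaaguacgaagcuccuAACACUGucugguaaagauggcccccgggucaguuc

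Levels are given as log2 of the probe's signal divided by the array's 75th percentile over 137 probes that were detected on all arrays. A floor of -5.49 was set under the levels, equal to 9.40 to 24.1 signal units depending on the array. A probe was called detected on an array where over 50% of its spots were well above background. At least 90 miRNAs were detected on each array, with 100 to 129 in the control group and 122 to 135 under Chlorendic Acid. The hepatocyte miRNA miR-122 had a control level of 6.40 ± 0.24 (SD, n = 5), and the other 5 hepatocyte miRNAs looked for, among them miR-192 and miR-194, were detected in every group.

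miR-200b and miR-200a were detected on most arrays, and the other 3 members on at most 17 of 38. By its brighter probe, miR-200b was detected on 36 of 38 arrays, miR-200a on 33, miR-429 on 17, miR-200c on 16 and miR-141 on 0. To be tested, a miRNA had to be detected throughout 1 or more groups, which 129 were, and these included miR-200a, miR-200b and miR-429 but neither member of the second cluster. Detection on all 38 arrays was met by 80 miRNAs and by no member. Each probe has its own brightness, so these counts are not a ranking of abundance.

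miR-200b rose under 6 of the 8 chemicals: Phenobarbital, Benzophenone, 2-acetylaminofluorene, Chlorendic Acid, Diethylhexylphthalate and Methapyrilene HCl. It did not pass the test under Monuron or Diethylthiourea. The 5 control arrays had levels of -4.48, -4.95, -4.58, -4.61 and -4.72, and 4 of the 5 were detected. The same 5 control animals served all 8 comparisons, so the 8 are not independent of each other.

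Under Phenobarbital, an activator of the nuclear receptor CAR, miR-200b stood at -2.37, -2.34 and -2.59. All 3 arrays lay far above every control array and above every array of every other chemical. The rise was 2.24 ± 0.24 on the log2 scale (SE, adjusted p = 8.08e-09, limma), or 4.72-fold, and in raw signal 120 to 168 units against 15.7 to 43.4. Across all tested miRNAs, 9.3% had every Phenobarbital array above every control array.

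Under Benzophenone the miR-200b levels were -2.77, -4.27, -3.36, -3.40 and -3.37, a rise of 1.23 ± 0.21 (adjusted p = 0.000116). All 5 lay above the controls, which 3.1% of tested miRNAs did, but replicate 2 sat just above the highest control and replicate 1 near the Phenobarbital arrays. Under 2-acetylaminofluorene, a genotoxic aromatic amine, they were -3.87, -3.35, -3.51, -3.15 and -3.76, a rise of 1.14 ± 0.21 (adjusted p = 0.00028). All 5 were above the controls, as for 4.65% of tested miRNAs.

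Under Chlorendic Acid the miR-200b levels were -3.44, -3.80, -3.51 and -3.46, a rise of 1.12 ± 0.22 (adjusted p = 0.000354). Under Diethylhexylphthalate, a peroxisome proliferator in rodents, they were -3.53, -3.65, -4.17 and -3.64, a rise of 0.92 ± 0.22 (adjusted p = 0.00412). Neither group overlapped the controls, as for 17.8% of tested miRNAs under Chlorendic Acid and 14.7% under Diethylhexylphthalate. Under Methapyrilene HCl, an antihistamine, they were -3.82, -4.23, -3.87 and -3.44, a rise of 0.83 ± 0.22 (adjusted p = 0.0273). These too did not overlap the controls, as for 4.65% of tested miRNAs, but the call was lost on leaving out Methapyrilene HCl replicate 1, 3 or 4 or control replicate 2 (adjusted p up to 0.133).

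Under Monuron the miR-200b levels spread widely, at -4.88, -4.21, -4.70 and -3.66, and 2 of the 4 lay above the highest control. The group thus overlapped the controls, while 5.43% of tested miRNAs had every Monuron array above them. The difference of 0.31 ± 0.22 did not pass (adjusted p = 0.563, 95% interval -0.15 to 0.77). Under Diethylthiourea they were -4.96, -4.28, -4.66 and -4.80, within or close to the control range. The difference was -0.0087 (adjusted p = 0.993, interval -0.47 to 0.45), so a change within that interval was not excluded by these arrays.

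**Figure D1:**
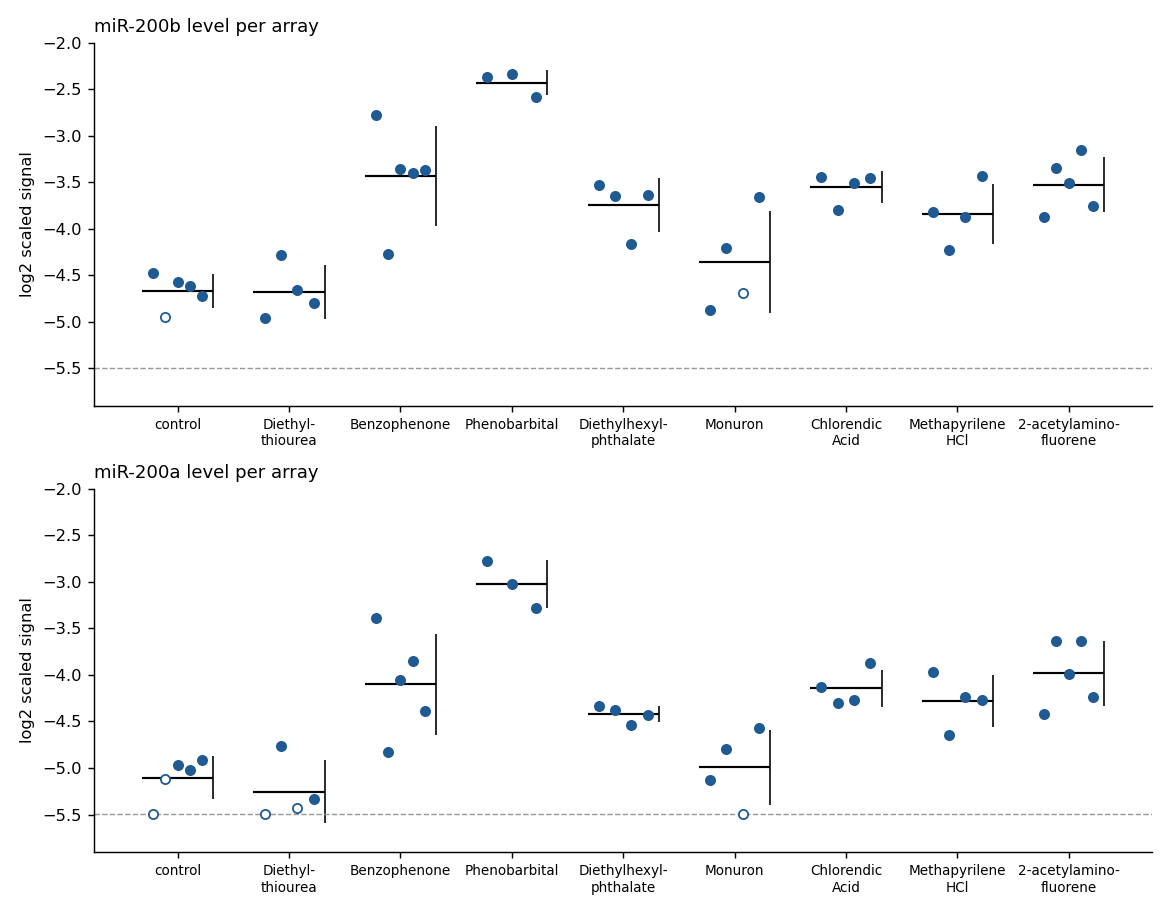
Level of miR-200b (upper) and miR-200a (lower) per array, as log2 of signal over the array's 75th percentile, by diet. Filled points are arrays where the probe was detected and open points where it was not. Horizontal lines are group means, vertical lines 1 SD either side, and the dashed line is the floor at -5.49. The 3 Phenobarbital arrays sit highest in both panels.

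The calls for miR-200b above rest on signals of 15.7 to 168 units, low on the scale of these arrays. With a normexp background correction and an offset of 50, the Phenobarbital difference was 1.03 (adjusted p = 3.68e-05) and that of 2-acetylaminofluorene 0.48 (adjusted p = 0.0418). With that correction the differences under Benzophenone (0.48), Diethylhexylphthalate (0.31), Chlorendic Acid (0.27) and Methapyrilene HCl (0.24) did not pass (adjusted p = 0.0853 to 0.681). Under Chlorendic Acid it also moved the median of all tested miRNAs from 0.0996 to -0.133. The offset of 50 is larger than every control signal of miR-200b (15.7 to 43.4). Log2 differences at such signals are therefore made smaller by construction, here and for the other members.

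**Figure D2:**
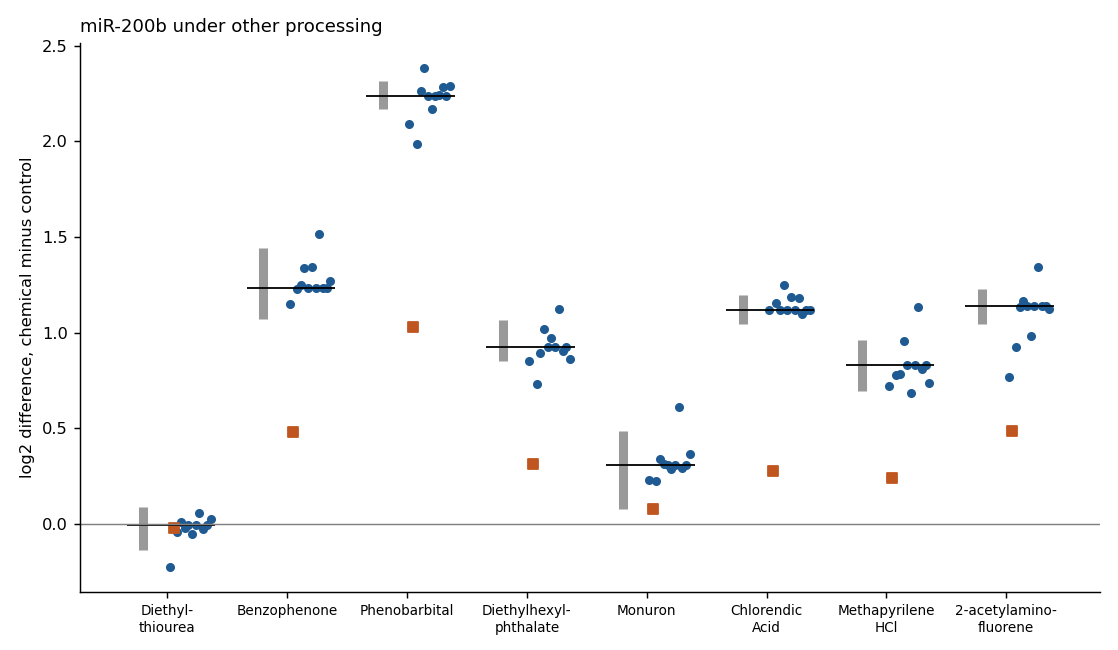
Difference of miR-200b from control under other processing, as log2 chemical minus control. Black lines are the reported values, grey bars the range when single arrays are left out, blue points the other alternatives and orange squares normexp with an offset of 50. The orange squares lie nearer 0 than the reported value for the 6 chemicals that were called.

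The arrays lay on 6 slides of up to 8, and control animals were on slides 1, 3 and 4 only. Within those slides miR-200b under Phenobarbital exceeded control by 2.23, 2.50 and 1.89. It exceeded control by 1.82 under Benzophenone (slide 1), 1.69 under 2-acetylaminofluorene (slide 3), 1.15 and 0.85 under Chlorendic Acid (slides 1 and 4), and 1.19 and 0.84 under Diethylhexylphthalate (slides 3 and 4). Monuron and Methapyrilene HCl shared no slide with control. With slide as a block, Methapyrilene HCl differed by 1.13 (adjusted p = 0.0255) and Monuron by 0.61 (adjusted p = 0.281).

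miR-200a, which carries the other seed but lies beside miR-200b, rose under the same 6 chemicals. Control levels were -5.49, -5.12, -4.97, -5.02 and -4.92, with 3 of 5 arrays detected. Under Phenobarbital they were -2.77, -3.02 and -3.28, a rise of 2.08 ± 0.24 (SE, adjusted p = 1.5e-08, limma). The Phenobarbital arrays again lay above every other array of the series. Every Phenobarbital array was above every control array for 9.3% of tested miRNAs.

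The 5 arrays of 2-acetylaminofluorene had miR-200a levels of -4.42, -3.64, -3.99, -3.63 and -4.23, a rise of 1.12 ± 0.21 (adjusted p = 0.00028). Those of Benzophenone stood at -3.39, -4.83, -4.05, -3.85 and -4.39, a 2.01-fold rise (adjusted p = 0.000855). No array of either group fell into the control range, although Benzophenone replicate 2 came close to it. All arrays lay above every control for 4.65% of tested miRNAs under 2-acetylaminofluorene and 3.1% under Benzophenone. The Benzophenone call was lost in a fit of only these 2 groups (adjusted p = 0.0873). The Chlorendic Acid arrays, at -4.13, -4.31, -4.27 and -3.87, differed from control by 0.96 ± 0.22 (adjusted p = 0.00126).

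The rises of miR-200a under Methapyrilene HCl and Diethylhexylphthalate depended on single arrays and on the scaling. The Methapyrilene HCl levels were -3.97, -4.65, -4.23 and -4.27 (rise of 0.83 ± 0.22, adjusted p = 0.0262), and those of Diethylhexylphthalate were -4.34, -4.37, -4.53 and -4.43 (0.69 ± 0.22, adjusted p = 0.0297). Both groups lay wholly above the controls, as for 4.65% of tested miRNAs under Methapyrilene HCl and 14.7% under Diethylhexylphthalate. Each call was nevertheless lost when any 1 of 5 arrays was left out: control replicate 1 or 2, Methapyrilene HCl replicate 1, 3 or 4 (adjusted p up to 0.116), and Diethylhexylphthalate replicate 1, 2 or 4 (up to 0.0829). Both were also lost with scaling over all probes (adjusted p = 0.0805 and 0.0687), and that of Diethylhexylphthalate with the mean of probes (0.162).

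miR-200a under Monuron, at -5.13, -4.79, -5.49 and -4.57, differed by 0.11 ± 0.22 (adjusted p = 0.96). Under Diethylthiourea, at -5.49, -4.76, -5.43 and -5.33, it differed by -0.15 ± 0.22 (adjusted p = 0.993). Both groups overlapped the controls and reached the floor on 1 array each. With normexp, of the 6 called chemicals only Phenobarbital passed for miR-200a, and the others had adjusted p of 0.0598 to 0.69.

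The probes of a miRNA did not tell the same size of change. The dimmer probe of miR-200b lay at the floor in all 5 controls, of which 1 was detected, so the floor sets the size of its differences. It passed under the same 6 chemicals, with adjusted p from 2.74e-09 (Phenobarbital) to 0.0483 (Methapyrilene HCl). The dimmer probe of miR-200a was not well above background on any control array and passed only under Phenobarbital and 2-acetylaminofluorene. Against the lowest detected signal on the control arrays it was at least 2.49-fold higher under Phenobarbital. Under 2-acetylaminofluorene its mean was 1.69-fold above that signal, but only 4 of 5 arrays were detected, so this is not a strict bound. The floored differences had adjusted p of 4.59e-06 under Phenobarbital and 0.00589 under 2-acetylaminofluorene (limma).

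**Figure D3:**
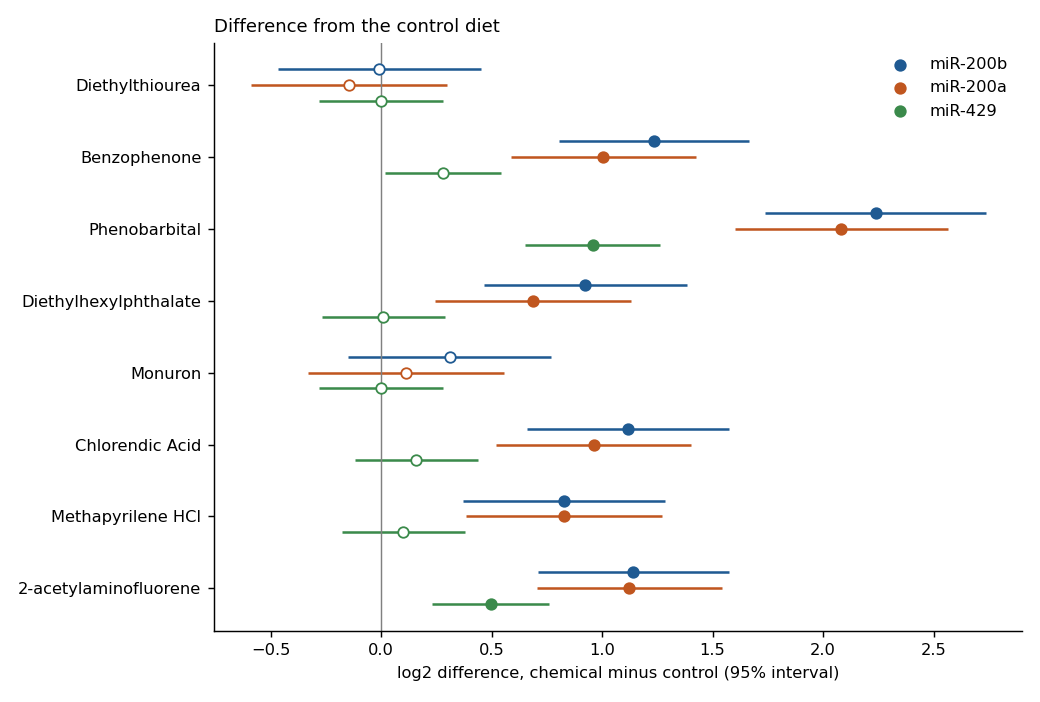
Difference from the control diet for miR-200b (blue), miR-200a (orange) and miR-429 (green), as log2 chemical minus control with the 95% interval of the fit. Filled points passed at an adjusted p under 0.05. miR-200b and miR-200a passed for 6 chemicals each and miR-429 for Phenobarbital and 2-acetylaminofluorene, where its control level is only a bound.

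miR-429, the third member of the chromosome 5 cluster, was measured in only some groups. By the rule on its spots it was not well above background on any control, Diethylthiourea or Monuron array. The scanner's own call per miRNA, which differs from that rule, marked it as detected on 2 control, 1 Diethylthiourea and 2 Monuron arrays. Under Phenobarbital it was detected on all 3 arrays at -4.53, -4.39 and -4.69, and was at least 2.04-fold higher than control (adjusted p = 8.8e-06, limma). That bound sets the treated mean against the lowest detected signal on each control array, while the adjusted p belongs to the floored difference of 0.96. With normexp the Phenobarbital difference was 0.30 and did not pass (adjusted p = 0.937).

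Under 2-acetylaminofluorene miR-429 was detected on 3 of 5 arrays, with levels of -5.49, -4.76, -4.76, -4.66 and -5.32. Their mean was 1.48-fold above the lowest detected signal on the control arrays. Undetected arrays entered that mean, so 1.48 is not a strict bound. The floored difference from control was 0.50 (adjusted p = 0.0101, limma). In a fit of only these 2 groups it did not pass (adjusted p = 0.107), nor with normexp (adjusted p = 0.454) or by its dimmer probe (adjusted p = 0.0649). Under Benzophenone the levels were -4.64, -5.49, -5.26, -5.21 and -5.48, with 3 of 5 arrays detected (adjusted p = 0.312). Benzophenone replicate 1, the animal highest for miR-200b and miR-200a in that group, was also highest for miR-429.

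Chlorendic Acid had miR-429 detected on 4 of 4 arrays but at or just above the floor, at -5.28, -5.49, -5.32 and -5.25 (adjusted p = 0.387). Methapyrilene HCl had it on 3 of 4, at -5.39, -5.49, -5.49 and -5.20 (adjusted p = 0.759), and Diethylhexylphthalate on 1 of 4, at -5.46 and otherwise the floor (adjusted p = 0.955). The floor set the size of these differences. In the authors' deposited values, fitted here in the same way, miR-429 differed by 1.21 under Chlorendic Acid (adjusted p = 0.00045), 1.27 under Benzophenone (adjusted p = 0.000191) and 0.93 under Diethylhexylphthalate (adjusted p = 0.0136).

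Counted by chemical against the background of all 129 tested miRNAs, the 3 tested members were all higher under Phenobarbital and 2-acetylaminofluorene, where 3.88% and 9.3% of tested miRNAs were called higher. Under Benzophenone 2 of 3 were called (background 3.1%), as under Methapyrilene HCl (3.88%), Diethylhexylphthalate (10.9%) and Chlorendic Acid (20.2%). Under Monuron the count was 0 of 3 against 3.1%, and under Diethylthiourea 0 of 3 against 0.0%. No tested member was called lower under any chemical. For miR-429 this was fixed in advance, since all 5 control arrays were at the floor. miR-200a had little room to fall, with a control mean of -5.11 and the floor at -5.49. None of the 3 was detected on every control array, so each met the filter for testing only through chemical groups. For miR-429 these were Phenobarbital (3 of 3 arrays) and Chlorendic Acid (4 of 4). For miR-200a they were the chemicals under which it was called, and for miR-200b those and Diethylthiourea. The counts of members called are therefore not independent of the filter. In either direction 29.5% of tested miRNAs were called under Chlorendic Acid, 14.7% under Diethylhexylphthalate, 11.6% under 2-acetylaminofluorene and at most 4.65% under the others. An F test over the 8 differences was passed by 45.0% of tested miRNAs and gave an adjusted p of 3.27e-08 for both miR-200a and miR-200b. For miR-429 it was 4.33e-05, or 0.327 with normexp.

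Of the second cluster only miR-200c gave levels, and those could not be tested. Its brighter probe stood at the floor on 20 of 38 arrays, and each of 8 groups had at least 1 array where it was detected, the exception being Diethylthiourea. Control levels were -5.49, -5.49, -5.49, -4.68 and -5.36. The highest levels were single animals: 2-acetylaminofluorene replicate 4 at -3.54, Chlorendic Acid replicate 3 at -3.76 and Phenobarbital replicate 3 at -4.54.

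Their group mates were far lower. The other 2-acetylaminofluorene arrays had miR-200c at -5.49, -4.93, -4.98 and -5.49, the other Chlorendic Acid arrays at -5.15, -5.43 and -5.49, and the other Phenobarbital arrays both at -5.49. The dimmer miR-200c probe was also highest in those first 2 animals, at -3.77 and -3.93. 2-acetylaminofluorene replicate 4 was also the animal of its group with the highest miR-200b and miR-429.

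Since miR-200c was not tested, its differences from control stand as descriptions: 0.42 under 2-acetylaminofluorene, 0.35 under Chlorendic Acid, 0.13 under Phenobarbital and between -0.17 and 0.024 elsewhere. The differences under 2-acetylaminofluorene and Chlorendic Acid are smaller than the spread within those groups (SD of 0.80 and 0.81). Without 2-acetylaminofluorene replicate 4 the first was 0.080, and without Chlorendic Acid replicate 3 the second was -0.051. In a fit without the detection filter, the 8 adjusted p-values ran from 0.33 to 1.0.

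miR-141 was not well above background by either probe on any of the 38 arrays. Its brighter probe read -4.26 to 9.51 signal units after background subtraction, with a median of 0.188. The animal with 9.51 was 2-acetylaminofluorene replicate 4, the same that was highest for miR-200c. No level, difference or test of miR-141 can be given, so the contrast between the clusters rests on detection and on miR-200c alone and was not tested.

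**Figure D4:**
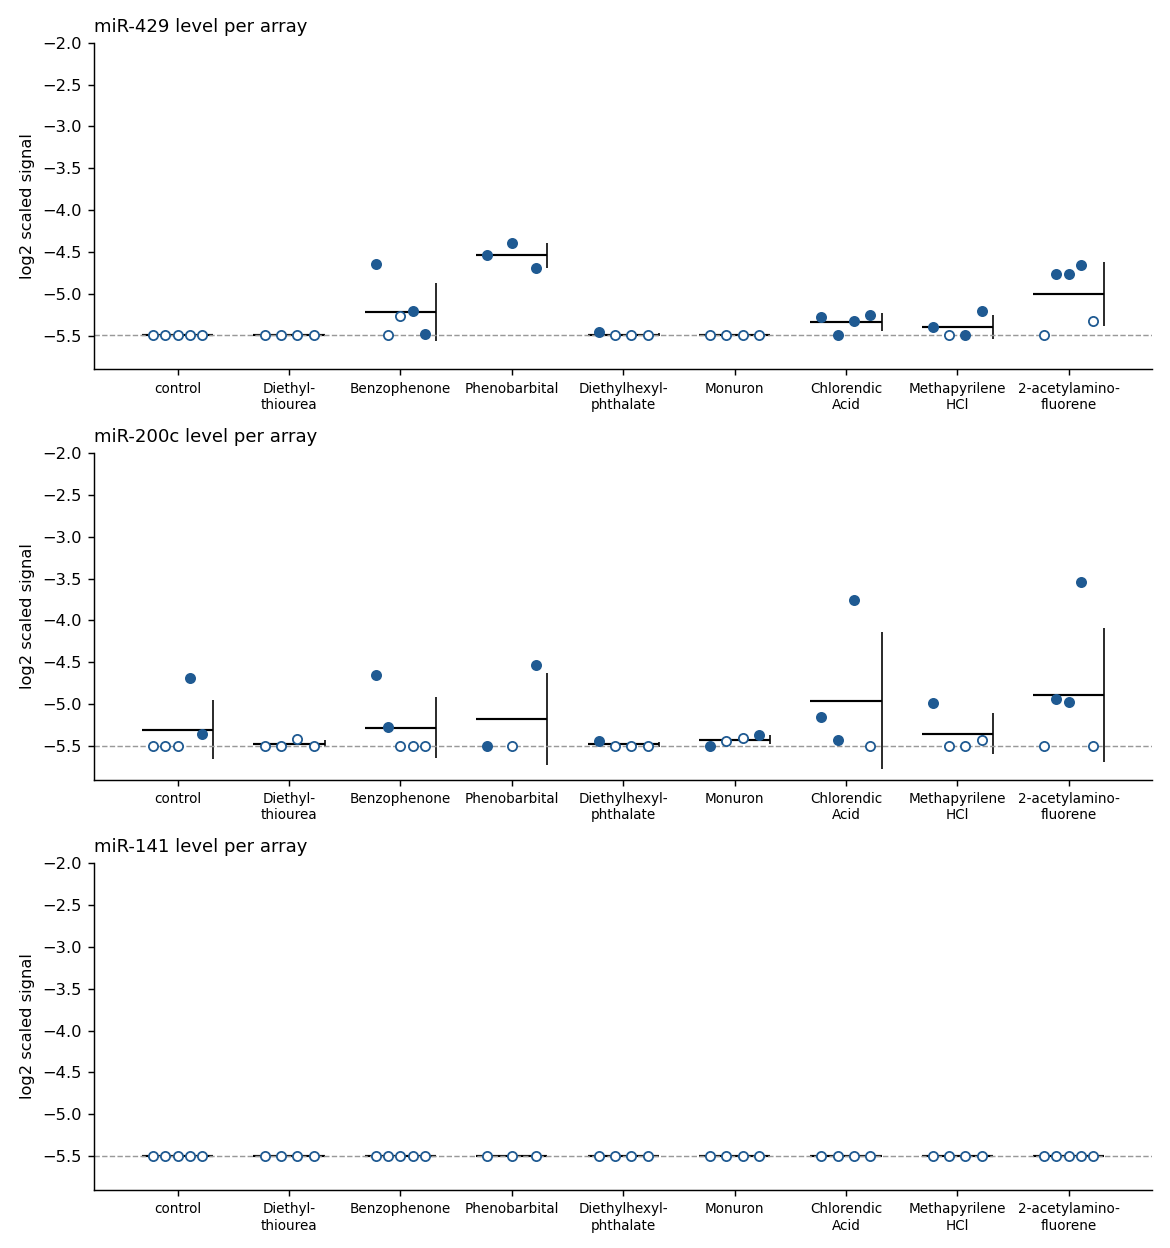
Level of miR-429, miR-200c and miR-141 per array by diet, drawn as for the other members, with the dashed floor at -5.49. miR-429 leaves the floor on all Phenobarbital arrays, miR-200c on at least 1 array of every group, and miR-141 on none.

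miR-200b and miR-200a moved together between animals on the same diet. Over the deviations of 38 arrays from their group means, Pearson's r was 0.78 (p = 2e-05) and Spearman's rho 0.68 (p = 8e-05), from 100000 permutations within groups. Without the 2 arrays farthest from the median of miR-200a, Benzophenone replicates 1 and 2, r was 0.67 (p = 0.00044) and rho 0.64 (p = 5e-04). Within the 4 slides of 6 or more arrays r was 0.96, 0.58, 0.46 and 0.94. The pair share labelling, scaling and array, and the part of these in the relation was not tested.

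Subtracting miR-200a from miR-200b on each array asks whether the neighbours changed unequally. The difference was 0.44 ± 0.34 (SD, n = 5) in control and ranged from 0.44 under Methapyrilene HCl to 0.67 under Diethylhexylphthalate. None of the 8 chemicals differed from control (exact permutation test, two-sided, adjusted p = 0.667 to 0.968, smallest possible p 0.0179 with 3 animals and 0.00794 otherwise). The brighter miR-200a probe was at the floor on control replicate 1 and on 1 Diethylthiourea and 1 Monuron array, where the subtraction gives only a bound. With single arrays left out no chemical passed, though differences reached 0.38 (Diethylhexylphthalate) and adjusted p fell as low as 0.0762. With the dimmer miR-200a probe in place of the brighter, 6 chemicals did pass, by 0.38 (Methapyrilene HCl) to 0.99 (Phenobarbital), with adjusted p of 0.0159 to 0.0238. The control values of that probe were all at the floor, which sets the size of these differences.

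**Figure D5:**
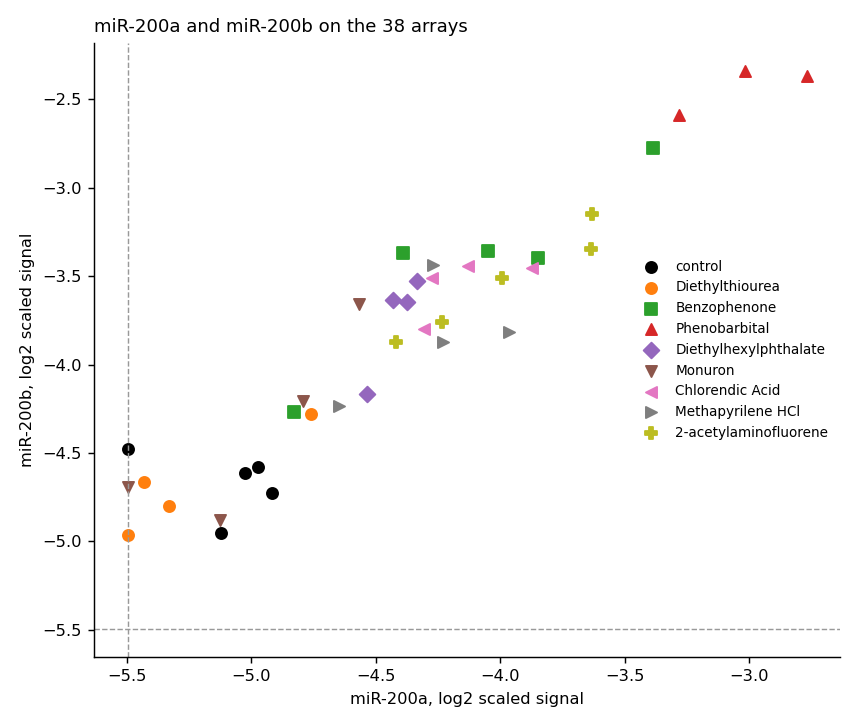
miR-200b against miR-200a on the 38 arrays, both as log2 scaled signal, with 1 symbol per diet and dashed lines at the floor. The Phenobarbital arrays lie at the upper right and the control and Diethylthiourea arrays at the lower left.

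By group mean miR-200b was highest under Phenobarbital (-2.43), followed by Benzophenone (-3.43), 2-acetylaminofluorene (-3.53), Chlorendic Acid (-3.55), Diethylhexylphthalate (-3.74), Methapyrilene HCl (-3.84), Monuron (-4.36), control (-4.67) and Diethylthiourea (-4.68). Of the steps between neighbours in that order only the first, from Phenobarbital to Benzophenone, passed (adjusted p = 0.00506). miR-200a had 2-acetylaminofluorene in second place (-3.98) and otherwise a similar order, and again only its first step passed (adjusted p = 0.00571).

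The 28 pairs of chemicals were compared with p-values adjusted over all tested miRNAs and pairs, of which 10.9% passed. Each chemical had its own single dose, so these are differences between diets as fed and not between matched doses. For miR-200b 15 of 28 pairs passed, for miR-200a 16 and for miR-429 10. With normexp these counts were 9, 7 and 0. Phenobarbital exceeded each of the other 7 chemicals in all 3 members, by 1.004 to 2.25 for miR-200b (adjusted p at most 0.00506), 0.96 to 2.23 for miR-200a (at most 0.00571), and for miR-429 with an adjusted p of at most 0.0408, where 11.1% of the pairs with Phenobarbital passed over all tested miRNAs. The size for miR-429 is not given as a range, since its Diethylthiourea and Monuron values are all at the floor.

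The other 5 chemicals that raised miR-200b did not pass a test against each other. None of their 10 pairs passed for miR-200b or miR-200a, against 14.5% of such pairs over all tested miRNAs. The widest miR-200b gap, Benzophenone minus Methapyrilene HCl, was 0.41 with a 95% interval of -0.052 to 0.86. For miR-429, 1 of the 10 passed: 2-acetylaminofluorene exceeded Diethylhexylphthalate by 0.49 (adjusted p = 0.016). The floor sets the size and spread of that difference, since 3 of 4 Diethylhexylphthalate arrays were at it. Monuron, which did not differ from control, was below Benzophenone (by 0.92), 2-acetylaminofluorene (0.83) and Chlorendic Acid (0.81) in miR-200b (adjusted p = 0.00492, 0.0119 and 0.0212).

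The study set carcinogens beside noncarcinogens, without its labels saying which is which. From general knowledge, Phenobarbital, Diethylhexylphthalate, Monuron, Chlorendic Acid, Methapyrilene HCl and 2-acetylaminofluorene were taken here as chemicals linked to liver tumours in rats, and Diethylthiourea and Benzophenone as the 2 others. The mean of the 6 exceeded that of the 2 by 0.54 ± 0.13 for miR-200a (SE, adjusted p = 0.00634) and by 0.48 ± 0.13 for miR-200b (adjusted p = 0.0177), while miR-429 did not pass (0.15, adjusted p = 0.274), where 6.2% of tested miRNAs passed. The 2 others were far apart from each other: Benzophenone, at -3.43, had more miR-200b than the mean of the 6 (-3.58), and Diethylthiourea stood at -4.68. Without Diethylthiourea replicate 1 or 4 or Benzophenone replicate 2 the miR-200b difference did not pass (adjusted p up to 0.0709), nor with normexp (adjusted p = 0.48), quantile normalization (0.11) or the authors' deposited values (0.0841). With normexp the miR-200a difference was 0.14 and did not pass (adjusted p = 0.513). For miR-429 the difference passed with total gene signal (0.28, adjusted p = 0.039) and in the authors' deposited values (0.51, adjusted p = 0.0358).

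Among the other 126 tested miRNAs, those whose 9 group means followed miR-200b most closely were miR-29c* (Pearson r = 0.77), miR-182 (0.74), miR-22* (0.61), miR-140* (0.59) and miR-425 (0.57), against a median of 0.036 over the 126. Within the family the same measure was 0.99 for miR-200a and 0.87 for miR-429. Over the deviations of the 38 arrays from their group means, r to miR-200b was 0.57 for miR-182 but only -0.034, 0.054, 0.09 and -0.087 for miR-29c*, miR-22*, miR-140* and miR-425. Of these 5 only miR-182 passed a comparison with control, rising under Phenobarbital (1.32, adjusted p = 7.54e-10), Benzophenone (0.58, adjusted p = 0.000427) and Diethylhexylphthalate (0.36, adjusted p = 0.0346). miR-182 was detected on 0 of 5 control arrays and stood at the floor on all of them. The floor thus set the size of these rises, and a fall of miR-182 could not have been seen. Farthest the other way were miR-122 (r = -0.53), miR-674-3p (-0.50) and miR-150 (-0.49). Over the deviations from group means their r to miR-200b had the opposite sign, at 0.40, 0.19 and 0.10. The median of that measure over the 126 was 0.15. The r values over group means describe only 9 means, and all arrays share their processing and scaling.

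Of 22 other miRNAs linked to the epithelial state or its loss, 21 were on the array and 14 were tested. Under Phenobarbital 2 of the 14 rose, miR-96 by 2.01 ± 0.17 and miR-182, which come from 1 cluster, and none fell. Under Benzophenone miR-96 (1.02) and miR-182 rose and miR-221 fell by 0.75, where 1.55% of tested miRNAs were called lower. Under Diethylhexylphthalate 4 rose, namely miR-221 (1.61), miR-96 (0.75), miR-375 (0.44) and miR-182 (0.36). For miR-182 all control arrays were at the floor, which set the size of its rises. Among all tested miRNAs 3.88% were called higher under Phenobarbital, 3.1% under Benzophenone and 10.9% under Diethylhexylphthalate.

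Some of the same miRNAs passed under other diets. Under Monuron, where the miR-200 family did not pass, 3 of 14 rose: miR-34a, a target of p53, by 2.07, miR-375 by 0.75 and miR-96 by 0.79. Under Chlorendic Acid 4 rose, miR-34a (1.28), miR-30d (0.66), miR-221 (0.61) and miR-375 (0.38), and 2 fell, miR-203, an epidermal miRNA, by 0.91 and miR-96 by 0.46, where 9.3% of tested miRNAs were called lower. Under 2-acetylaminofluorene and Methapyrilene HCl miR-34a alone rose, by 5.10 and 0.9975, and under Diethylthiourea none passed. Among all tested miRNAs 2.33% were called lower under 2-acetylaminofluorene and 0.775% under Methapyrilene HCl. The shares called higher were 3.1% under Monuron, 20.2% under Chlorendic Acid, 9.3% under 2-acetylaminofluorene and 3.88% under Methapyrilene HCl. The list's median difference lay between -0.13 and 0.13 under every chemical, beside -0.04 to 0.10 over all tested miRNAs.

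Markers of the cell types of a liver sample were called under 4 of the 6 chemicals that raised miR-200b (Diethylhexylphthalate, Chlorendic Acid, Methapyrilene HCl and 2-acetylaminofluorene) and not under Phenobarbital or Benzophenone. In bulk liver, fewer cells of a type and less RNA per cell cannot be told apart. Of the epithelial miRNAs outside the family, miR-205 was detected on 0 of 38 arrays, while miR-203 and miR-31 were detected on all 38 and were called higher under no chemical. Under Phenobarbital miR-203 differed by -0.24 (adjusted p = 0.648) and miR-31 by 0.21 (adjusted p = 0.707).

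Of 6 hepatocyte miRNAs none passed under Phenobarbital. Their summed scaled signal, most of it miR-122, had a median of 83.5 there and 92.9 in control, with overlapping ranges. Under Diethylhexylphthalate 1 of 6 fell, miR-122 by 0.34 (adjusted p = 0.0239), where 3.88% of tested miRNAs were called lower. The summed signal was 70.75 to 75.77 there against 75.16 to 113.1 in control. The hepatocyte list's median difference was negative under every chemical, from -0.01 (Phenobarbital) to -0.27 (Chlorendic Acid). Of 5 stellate cell and fibroblast miRNAs, 3 rose under 2-acetylaminofluorene (miR-199a-3p by 0.55, miR-199a-5p by 0.61 and miR-214 by 0.49), with a summed signal of 0.784 to 1.31 against 0.795 to 0.928 in control. Under Methapyrilene HCl 1 of the 5 rose, miR-199a-3p by 0.61. Among all tested miRNAs 9.3% were called higher under 2-acetylaminofluorene and 3.88% under Methapyrilene HCl.

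Of 4 tested leukocyte miRNAs 2 rose under Chlorendic Acid, miR-146a by 0.68 and miR-150 by 0.45, where 20.2% of tested miRNAs were called higher. The summed signal over 6 miRNAs was 0.862 to 1.22 there against 0.482 to 0.83 in control. It also lay above control under Methapyrilene HCl (0.869 to 1.06) and Monuron (0.834 to 0.994), where no leukocyte miRNA was called. miR-146b was detected on no array of any group. The 2 endothelial miRNAs, miR-126 and miR-126*, passed under no chemical, and of the red cell pair miR-451 fell under Diethylhexylphthalate by 0.72. The part of any of these in the miR-200 values was not tested.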

How the data were processed

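Total RNA was labelled with Cy3 and hybridised to 1-colour Agilent arrays, per the labels. The deposited scanner files hold spot intensity on a linear scale, which per the file headers came from Feature Extraction 10.5.1.1. The authors' deposited value table is in log2 units for 167 miRNAs, with its centring unstated. After leaving out control spots and outlier marks, spots of a probe were averaged, arrays were scaled to the 75th percentile over 137 probes, floored at the 5th percentile of detected values and taken to log2. Each miRNA took its brightest probe. All 38 arrays were fitted with limma 3.58.1 (R 4.3.3), with Benjamini-Hochberg adjustment over 129 miRNAs. The per-array contrast of miR-200b and miR-200a used exact permutation, and the planned test between the clusters was not run because no member of the second was detected throughout any group. Alternatives were other scalings, background corrections, floors, probes, filters, the authors' table, slide or replicate number as a block and single arrays left out. Named miRNAs were the 5 members, the 5 most and 3 least like miR-200b over group means, and called members of listed sets. The members and lists were chosen with earlier results of these data known. Groups of 3 to 5 arrays limit the precision, and p-values weigh differences against the spread between these animals. Which rats shared a cage is not recorded here, so cage was not modelled and the p-values do not cover it.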

Additional observations from a re-analysis of the deposited data

Results flagged for a closer look

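In 7 of 29 sets of 4 or 5 arrays with any spread, 1 array stood apart from its group by Dixon's test. Its nominal rate of 1 in 20 holds for values without ties. All 7 sets held arrays tied at the floor, so the count cannot be set against that rate. For miR-200c these were 2-acetylaminofluorene replicate 4 (-3.54, the others at most -4.93), Benzophenone replicate 1 (-4.65), control replicate 4 (-4.68) and Methapyrilene HCl replicate 1 (-4.99). Diethylthiourea replicate 3 (-5.41) and Diethylhexylphthalate replicate 1 (-5.44) stood apart for miR-200c only because their group mates were all at the floor of -5.49, as did Diethylhexylphthalate replicate 1 for miR-429 (-5.46). None stood apart for miR-200a or miR-200b.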

How the results depend on the processing

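For miR-200b, normexp with an offset of 50 ended the calls under Benzophenone (0.479), Diethylhexylphthalate (0.311), Chlorendic Acid (0.275) and Methapyrilene HCl (0.238), lowered the called pairs of chemicals from 15 to 9 and left 6 against 2 at 0.175. Under Methapyrilene HCl the call was also lost with scaling over all probes (0.721) and in the authors' table (0.683), and 6 against 2 with quantile normalization (0.374) and in the authors' table (0.401). The normexp offset exceeds every control signal of miR-200b and so makes its log2 differences smaller by construction. The causes of the lost calls were not tested. The Diethylthiourea difference of miR-200b, never called, changed sign with the mean of probes (0.00819), slide as a block (0.0553) and the other probe (0.025).

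The contrast of miR-200b minus miR-200a passed with the mean of probes under Benzophenone (0.597), Phenobarbital (0.601), Diethylhexylphthalate (0.507) and Chlorendic Acid (0.444), and with the other probe of miR-200a under Benzophenone (0.931), Phenobarbital (0.993), Diethylhexylphthalate (0.841), Chlorendic Acid (0.728), Methapyrilene HCl (0.38) and 2-acetylaminofluorene (0.454), while Diethylthiourea changed sign (-0.0087). Its uncalled values near 0 changed sign under Methapyrilene HCl with scaling over all probes (-0.106), quantile normalization (-0.0693), total gene signal (-0.086), the lower floor (-0.0627), the authors' table (-0.0903), the other probe of miR-200b (-0.0912) and slide as a block (-0.0722). Under 2-acetylaminofluorene they did so with scaling over all probes (-0.0895), total gene signal (-0.0234), the lower floor (-0.046), the authors' table (-0.0277), the other probe of miR-200b (-0.0019) and slide as a block (-0.0516). For miR-429, normexp turned Chlorendic Acid to -0.0894, where it also moved the median of all tested miRNAs from 0.0996 to -0.133.

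With replicate number as a block (replicate block) no call of miR-200a or miR-200b changed, with miR-200b differing by 2.29 under Phenobarbital and 0.809 under Methapyrilene HCl (adjusted p = 0.043), and miR-429 under Diethylhexylphthalate turned to -0.0397. The numbers do not pair the animals: the median correlation of deviations was -0.0585 between arrays of the same number and -0.0005 otherwise, and 13 of 38 arrays correlated best with their own number.

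Leaving out single arrays gave ranges for miR-200b of -0.14 to 0.0863 under Diethylthiourea, 0.694 to 0.958 under Methapyrilene HCl and 0.375 to 0.562 for 6 against 2, and for miR-200a under Monuron of -0.0314 to 0.278. For miR-200b minus miR-200a they were -0.131 to 0.145 under Methapyrilene HCl and -0.0488 to 0.162 under 2-acetylaminofluorene. miR-429 passed for 6 against 2 without Benzophenone replicate 1 (adjusted p = 0.0466). Of the other alternatives than single arrays, 422 values kept their direction and side of the threshold, 31 lost and 18 gained a call, 19 changed sign and 2 without a test moved. A filter for detection on all arrays holds no member and gives no value. Scaling over all probes moved the median of all tested miRNAs under 2-acetylaminofluorene from -0.0043 to -0.331. Signals near background limit every member, with miR-429 and miR-200c each at the floor on 20 of 38 arrays and miR-141 on all 38.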
